A study of Mus musculus with 9 samples.

Results

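Transcripts of 10 transcription factors that direct granulocyte and monocyte fate were followed across 9 libraries of LSK cells from mouse bone marrow. The factors were listed by name as Cebpa, Cebpb, Cebpe, Cebpd, Spi1, Gfi1, Irf8, Klf4, Id2 and Runx1. The table analysed gave values for 8 of the 10, among 14461 genes in all, and transcripts of Cebpb and Cebpd were not analysed here. Of the 8, Cebpa and Klf4 stayed below the filter on low values, so 6 entered the test.

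LSK is the marrow fraction without lineage markers that carries Sca-1 and c-Kit, and it holds blood stem cells with the multipotent progenitors just below them. The libraries came from parabiotic mice, pairs of animals joined by surgery so that blood cells pass between partners, and the design text speaks of LSK cells that circulated into the marrow of an irradiated partner. The 3 libraries labelled circulating and the 3 labelled irradiated carry the strain label C57BL/6, and the 3 labelled endogenous carry B6SJL CD45.1. All came from specific pathogen free animals. By these labels strain changes with the group in any comparison with endogenous cells. The labels do not say whether a strain is that of the animal whose marrow was sorted or of the sorted cells, which in the circulating libraries may have come from the joined partner. Strain and group therefore cannot be told apart in any of the comparisons, the one between circulating and irradiated cells included. Age, sex, radiation dose and the number of animals behind a library were not given in the sources used here, and the spread that p-values measure between libraries may therefore be technical.

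Granulocytes and monocytes arise from multipotent cells through a small circuit of DNA-binding proteins. Runx1 acts early and helps to switch on Spi1, which encodes PU.1, an ETS-family factor needed for all myeloid cells. C/EBP alpha, from Cebpa, is needed to form granulocyte-monocyte progenitors and turns on granule protease genes. C/EBP epsilon, from Cebpe, acts later and is needed for the secondary granules of neutrophils, while C/EBP beta, from Cebpb, supports granulocyte production under stress. Gfi1 is a repressor that favours granulocytes, whereas Irf8 favours monocytes and dendritic cells and restrains granulocytes. Klf4 promotes monocyte differentiation. Id2 encodes an inhibitor that binds E proteins and keeps them off DNA, and it is abundant in several dendritic and innate lymphoid cells.

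Values below are those the authors deposited, in which an estimated count was divided by a scaled size of its library, giving a scale close to CPM. The shallowest library, circulating replicate 2, held 14065855 estimated counts and the deepest, irradiated replicate 2, held 27012345. Reads were amplified by PCR and carry no molecular identifiers, so depth speaks to counting error only. Transcripts of the sort were present in every library: the 8 LSK markers summed to 2525 to 3811 in circulating, 3249 to 3607 in irradiated and 4428 to 4909 in endogenous libraries, with none at a count of 0. Each fold change was taken on a log2(value + 1) scale and fitted over 13771 genes and all 9 libraries with limma, with p-values adjusted over all of those genes and called under 0.05.

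Promoter sequence was at hand for 7 of the 10 factors. The 250 bases before a start site are shown for Irf8 and Runx1, and for Cebpa, the factor with the lowest values beside Klf4. The circulating mean lay above the endogenous mean for Irf8 and below it for Runx1. Neither of these differences was called, and the Irf8 groups overlapped. The windows are RefSeq sequences of build GRCm38.p6. The Irf8 window is chr8:120736108-120736357 on the plus strand, the Runx1 window is that of the inner start site at chr16:92697330-92697579 on the minus strand, and the Cebpa window is chr7:35119043-35119292 on the plus strand. None of these windows touches an exon annotated by GENCODE. Capitals mark matches to short core motifs of the factors themselves, searched on both strands.
Irf8: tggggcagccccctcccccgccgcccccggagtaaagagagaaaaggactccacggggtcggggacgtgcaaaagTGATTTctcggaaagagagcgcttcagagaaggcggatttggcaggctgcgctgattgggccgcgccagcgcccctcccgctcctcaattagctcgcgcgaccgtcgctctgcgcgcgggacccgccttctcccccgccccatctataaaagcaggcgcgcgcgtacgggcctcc
Runx1: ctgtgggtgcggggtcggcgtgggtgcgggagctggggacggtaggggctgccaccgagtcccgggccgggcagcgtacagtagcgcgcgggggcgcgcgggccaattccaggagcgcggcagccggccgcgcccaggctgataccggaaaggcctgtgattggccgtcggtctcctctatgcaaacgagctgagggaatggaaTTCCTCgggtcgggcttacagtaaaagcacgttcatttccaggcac
Cebpa: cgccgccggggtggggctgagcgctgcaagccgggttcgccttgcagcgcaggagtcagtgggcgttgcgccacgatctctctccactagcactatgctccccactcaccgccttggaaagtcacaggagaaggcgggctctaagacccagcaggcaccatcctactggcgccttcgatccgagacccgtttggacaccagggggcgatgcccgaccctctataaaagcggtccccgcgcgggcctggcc

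The motifs were GAGGAA for PU.1, TTGCNNAA for C/EBP factors, TGTGGT for RUNX factors, GAAA repeated after any 2 bases for IRF factors and AAATCA for GFI1, and no match overlapped another. The Irf8 window held 1 match to the GFI1 core, on the reverse strand from 175 to 170 bases before the start, and 12.4% of all 32851 promoter windows held that motif. The Runx1 window held 1 match to the PU.1 core, on the reverse strand from 46 to 41 bases before the start, against 23.3% of all windows. No GENCODE transcript opens just after this Runx1 window. One does after the window of the other Runx1 start, chr16:92826075-92826324, which touches a Runx1 exon, held 0 matches and is not shown. A second Irf8 window, chr8:120738389-120738638, also held 1 match to the GFI1 core. The Cebpa window held none of the 5 motifs. Among the other windows not shown, that of Gfi1 at chr5:107725806-107726055 held 1 match to the C/EBP core, on the forward strand. That window touches exons of Gfi1 and A430072P03Rik. The second Gfi1 window and those of Cebpb, Id2 and Klf4 held 0 matches. The motif shares over all windows were 9.56% for C/EBP, 14.0% for RUNX and 2.98% for IRF. A match is a string of letters and says nothing about binding.

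Circulating LSK cells were first set against endogenous LSK cells. No factor passed the test. Spi1, Cebpe, Irf8 and Id2 had higher means and Runx1 a lower mean in circulating cells, with adjusted p between 0.057 and 0.11 (limma). In the same comparison 4 of 6 listed target genes of C/EBP alpha, all of them primary granule genes, rose, where 8.63% of all tested genes were called. The target lists were chosen with earlier results of these data known, so this count is a description and not a test.

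Runx1 (GRCm38 chromosome 16, from 92601466 to 92826149, minus strand), the earliest of these factors in the hierarchy, had values of 73.6, 47.3 and 69.3 in circulating replicates 1, 2 and 3, against 81.1, 89.5 and 98.6 in endogenous replicates 1, 2 and 3. Every circulating library lay below every endogenous library, and circulating replicate 2 was the lowest of all 9. The log2 fold change was -0.52 (SE 0.19, 95% interval -0.93 to -0.10, limma adjusted p = 0.11), and -0.32 without circulating replicate 2. When values were scaled by library size alone, the log2 fold change became -0.72 and Runx1 passed (adjusted p = 0.043), the single factor of the 6 to do so, where 8.43% of all tested genes passed. An antisense gene, Gm26626, shares exon positions with Runx1 on the opposite strand, and the library chemistry named in the labels does not mark strand.

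Spi1, on chromosome 2 from 91082390 to 91115756, had values of 118, 139 and 146 in circulating cells, against 110, 70.8 and 93.9 in endogenous cells. The groups did not overlap, although circulating replicate 1 and endogenous replicate 1 lay close to each other. This gave a log2 fold change of 0.56 (SE 0.17, 95% interval 0.18 to 0.94, limma adjusted p = 0.068), the narrowest interval of the 6 factors.

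The granulocyte factors stood at low values. Cebpe, on chromosome 14 from 54710360 to 54712174, had values of 2.73, 7.92 and 4.50 in circulating cells, against 2.08, 0.463 and 1.3 in endogenous cells. The groups did not overlap, but the values correspond to 60 to 105 estimated counts in circulating and 10 to 53 in endogenous libraries. This gave a log2 fold change of 1.38 (SE 0.43, 95% interval 0.45 to 2.32, limma adjusted p = 0.068). At such low values the size depends on the number added before the log. The log2 fold change was 1.64 with 0.5 added in place of 1, and 1.95 with limma voom on recovered counts. Gfi1, on chromosome 5 from 107716657 to 107726036, had values of 8.69, 29.5 and 14.2 in circulating cells, against 4.15, 16.7 and 9.84 in endogenous cells. These ranges overlapped, and the spread within each group was wide. This gave a log2 fold change of 0.73 (SE 0.51, 95% interval -0.40 to 1.85, limma adjusted p = 0.39). Gfi1 shares exon positions with A430072P03Rik on the opposite strand, so its values may hold reads of both.

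Cebpa, on chromosome 7 from 35119293 to 35121928, had values of 0.881, 0.638 and 1.84 in circulating cells, 1.24, 0.931 and 0.799 in irradiated cells, and 0.136, 0.419 and 0.796 in endogenous cells. These are 8 to 32 estimated counts per circulating library, 19 to 27 per irradiated library and 3 to 20 per endogenous library. All 9 values were thus near the detection floor and no fold change is given. The longest GENCODE transcript of Cebpa has 1 exon and a GC content of 62.6%, higher than in 99.0% of 12138 protein-coding genes of the table, whose median is 49.9%. Cebpe had a GC content of 61.5%, Spi1 58.9%, Gfi1 57.4%, Irf8 55.1%, Klf4 54.6%, Runx1 46.4% and Id2 45.2%. The part of base composition in the levels was not tested. Cebpa also shares exon positions with the antisense gene Gm45091.

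The monocyte and dendritic factor Irf8, on chromosome 8 from 120736358 to 120756694, had values of 82.7, 301 and 194 in circulating cells, against 61.0, 50.1 and 99.0 in endogenous cells. Circulating replicates 2 and 3 lay above all endogenous libraries, and circulating replicate 1 lay inside their range. The log2 fold change was 1.32 (SE 0.39, 95% interval 0.46 to 2.18, limma adjusted p = 0.061). Klf4, on chromosome 4 from 55527143 to 55532466, had values of 0.701, 0.563 and 2.75 in circulating cells, 0.606, 1.33 and 0.266 in irradiated cells, and 0.798, 0.904 and 0.948 in endogenous cells. Circulating replicate 3 stood above the other libraries, the groups overlapped, and Klf4 was not tested.

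Id2, on chromosome 12 from 25093799 to 25097140, had values of 50.5, 354 and 102 in circulating cells, against 33.5, 29.9 and 33.7 in endogenous cells. Every circulating library lay above the tight endogenous group, but the circulating libraries differed widely and replicate 2 stood far above the others. This gave a log2 fold change of 1.89 (SE 0.55, 95% interval 0.68 to 3.10, limma adjusted p = 0.057), with the highest point estimate and the widest interval of the 6 factors in this fit. The ranking depended on the fit. With limma voom on recovered counts Id2 stood at 1.78 (SE 0.68), below Cebpe at 1.95 (SE 0.73).

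**Figure D1:**
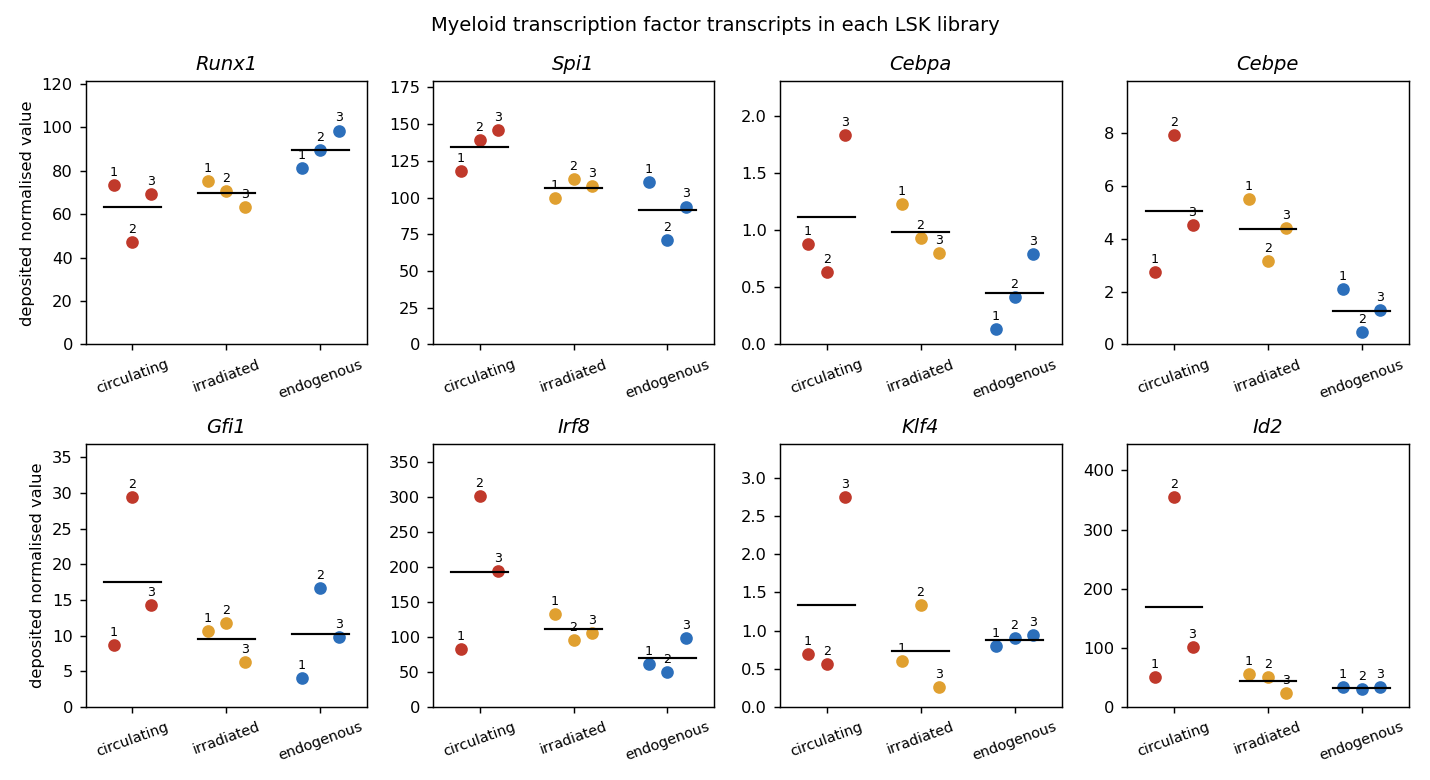
Deposited normalised values (vertical axes, linear, starting at 0) of the 8 factors with values, one point per library, numbered by replicate, with a line at each group's mean (n = 3). Circulating replicate 2 is the highest point for Cebpe, Gfi1, Id2 and Irf8 and the lowest for Runx1.

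Read against all genes, 0 of 6 tested factors were called in circulating against endogenous cells, where 8.63% of 13771 tested genes were called (1189 genes, 734 higher and 455 lower). At an unadjusted p under 0.05, 5 of the 6 passed, where 26.7% of all genes did. The same 5, Cebpe, Id2, Irf8, Runx1 and Spi1, also had an unadjusted p under 0.05 with limma voom on recovered counts, which likewise called 0 after adjustment. The groups did not overlap for 4 of the 6, where 27.5% of all genes did not overlap. The result turned on circulating replicate 1: without it, Cebpe, Id2, Irf8 and Spi1 were called (adjusted p = 0.028, 0.0080, 0.0040 and 0.039), where 16.1% of all genes were called. Their log2 fold changes were then 1.69, 2.52, 1.83 and 0.65. The count over all genes ranged from 257 without endogenous replicate 1 to 2224 without circulating replicate 1. When scaled by library size alone it became 340 higher and 821 lower, with a median log2 fold change over all genes of -0.22, against -0.04 with the deposited scaling.

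Irradiated LSK cells were next set against endogenous LSK cells, which are the same endogenous libraries as above. No factor passed. Cebpe had values of 5.50, 3.16 and 4.39 in irradiated cells, against 2.08, 0.463 and 1.3 in endogenous cells. Every irradiated library lay above every endogenous one. The log2 fold change was 1.27 (SE 0.43, 95% interval 0.34 to 2.21, limma adjusted p = 0.19). It was 1.53 with 0.5 added in place of 1, and 1.92 with limma voom on recovered counts. Runx1 had values of 75.3, 70.8 and 63.2 in irradiated cells, against 81.1, 89.5 and 98.6 in endogenous cells. These groups did not overlap either, with irradiated cells lower (log2 fold change -0.36, SE 0.19, limma adjusted p = 0.41).

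Irf8 had values of 133, 95.2 and 106 in irradiated cells, against 61.0, 50.1 and 99.0 in endogenous cells, and the groups overlapped at 1 library each. The log2 fold change was 0.71 (SE 0.39, 95% interval -0.16 to 1.57, limma adjusted p = 0.45). Spi1 had values of 99.5, 113 and 108 in irradiated cells, and its log2 fold change against endogenous cells was 0.24 (95% interval -0.14 to 0.62, limma adjusted p = 0.58). Id2 had values of 55.5, 50.4 and 24.3 in irradiated cells, around the endogenous level near 32.4, with a log2 fold change of 0.33 (95% interval -0.88 to 1.54, limma adjusted p = 0.84). Gfi1 had values of 10.7, 11.7 and 6.38 in irradiated cells, inside the endogenous range, and its log2 fold change of 0.05 (95% interval -1.08 to 1.18, limma adjusted p = 0.98) became -0.071 when values were scaled by library size alone.

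In irradiated against endogenous cells, 0 of 6 tested factors were called by limma, where 0.603% of all tested genes were called (83 genes, 65 higher and 18 lower, or 51 higher and 27 lower when scaled by library size alone). At an unadjusted p under 0.05, 1 of the 6 passed, Cebpe, where 14.9% of all genes did, and limma voom gave the same counts for the factors. The groups did not overlap for 2 of the 6, where 27.7% of all genes did not overlap. The count over all genes fell to 6 without irradiated replicate 3 or without endogenous replicate 1, and it was 263 without circulating replicate 1, which shares in the estimate of spread.

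Circulating and irradiated LSK cells were compared last. No factor passed. Spi1 was the 1 factor whose groups did not overlap, with 118, 139 and 146 in circulating cells, against 99.5, 113 and 108 in irradiated cells. Its log2 fold change was 0.32 (SE 0.17, 95% interval -0.05 to 0.70, limma adjusted p = 0.50). Id2 had values of 50.5, 354 and 102 in circulating cells, against 55.5, 50.4 and 24.3 in irradiated cells. Circulating replicate 1 lay among the irradiated libraries and the other circulating libraries above them (log2 fold change 1.56, SE 0.55, 95% interval 0.34 to 2.77, limma adjusted p = 0.35). The Id2 value was 0.79 without circulating replicate 2 and 2.19 without circulating replicate 1, with limma adjusted p of 0.44 and 0.059.

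For the other factors the intervals between circulating and irradiated cells spanned 0. They ran from -0.25 to 1.48 around a log2 fold change of 0.61 for Irf8, from -0.45 to 1.81 around 0.68 for Gfi1, from -0.83 to 1.05 around 0.11 for Cebpe and from -0.57 to 0.25 around -0.16 for Runx1. Without circulating replicate 2 the log2 fold change was 0.20 for Irf8 and 0.24 for Gfi1, and without circulating replicate 1 it was 1.1 for Irf8 and 1.06 for Gfi1, with none of these called. In this comparison 0 of 6 factors were called by limma, where 0.029% of all tested genes were called (4 genes, 3 higher and 1 lower, or 3 higher and 8 lower when scaled by library size alone). At an unadjusted p under 0.05, 1 of the 6 passed, Id2, where 11.4% of all genes did, and limma voom gave the same counts for the factors. Non-overlap held for 1 of the 6, where 16.7% of all genes did not overlap. Without circulating replicate 1 the count over all genes was 137.

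**Figure D2:**
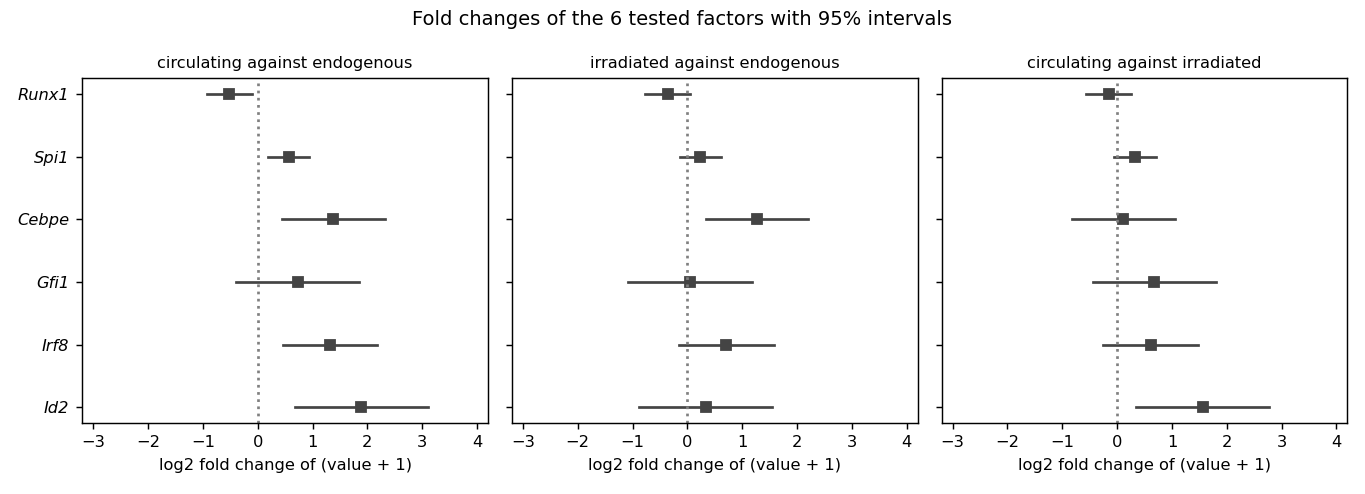
Log2 fold changes on the log2(value + 1) scale (horizontal axes) of the 6 tested factors, with squares at the estimate and bars over the 95% interval from the fit of all 9 libraries, in the 3 comparisons. Against endogenous cells, Id2 reaches 1.89 in circulating and 0.33 in irradiated cells, while Cebpe stands at 1.38 and 1.27. With limma voom on recovered counts (not drawn), Cebpe stood at 1.95 and 1.92 in the same order.

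Levels may be compared between factors only per length. Per kilobase of the longest GENCODE transcript, the normalised level in circulating, irradiated and endogenous cells was 66.0, 52.4 and 45.1 for Spi1, 67.6, 39.1 and 24.6 for Irf8, and 85.7, 22.1 and 16.4 for Id2. Runx1 followed with 10.8, 11.9 and 15.3, and Gfi1 with 6.11, 3.35 and 3.58. Cebpe stood at 4.07, 3.50 and 1.03, and Cebpa and Klf4 at or under 0.441 in every group. Spi1 thus had the highest endogenous level per length of the 8, and Cebpa the lowest.

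The genes most like each factor over the 9 libraries were taken by the root mean square difference of centred log2 values. For Spi1 they were Actn4 (0.105 log2 units), Shc1 (0.106) and Arpc1b (0.110). For Runx1 they were Zc3h11a (0.113), Heatr5b (0.119) and Hcfc1r1 (0.126). Irf8 was followed most closely by Cst3 (0.257), which encodes the protease inhibitor cystatin C, by Gna12 (0.279) and by Tmsb4x (0.314). Id2 was followed by Ifi205 (0.223), Jaml (0.275) and Cd74 (0.288), the invariant chain of MHC class II. Cebpe had Dok3 (0.242), Asf1b (0.290) and Ncln (0.295), and Gfi1 had Mtm1 (0.361), Asb7 (0.370) and Cd86 (0.383). The differences are larger for Gfi1, Id2, Irf8 and Cebpe, whose own values spread by 0.695 to 1.10 log2 units about their mean, than for Spi1 and Runx1, whose values spread by 0.289 and 0.283. These are descriptions of 9 libraries that share group differences.

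Genes known to be activated or repressed by the factors were then read beside them, in lists chosen with earlier results of these data known. Over all tested genes, 8.63% were called in circulating against endogenous cells. Of 6 listed targets of C/EBP alpha, 4 rose and 0 fell in circulating against endogenous cells, with a list median of 2.97, where the median of all tested genes was -0.04. The 4 were Elane, Ctsg, Mpo and Prtn3, which encode primary granule proteins. Mpo, which encodes myeloperoxidase, averaged 18270 ± 9404 in circulating and 1905 ± 373 in endogenous cells (SD, n = 3 each), a log2 fold change of 3.14 (limma adjusted p = 0.0079). Elane, the neutrophil elastase gene, averaged 3434 ± 1792 and 246 ± 81.1 in the same groups, a log2 fold change of 3.68 (limma adjusted p = 0.0047). These 4 calls held in each of 16 other settings. The remaining targets did not pass: Csf3r, which encodes the G-CSF receptor, had a log2 fold change of 0.22 and Il6ra one of -0.47. In irradiated against endogenous cells, Elane, Ctsg and Prtn3 rose and 3 did not pass (list median 2.02, all tested genes -0.01), with Mpo at a log2 fold change of 2.11 (limma adjusted p = 0.069). Those 3 calls were each lost in 4 to 8 of 16 other settings, among them the fits without irradiated replicate 1, without irradiated replicate 3 and without endogenous replicates 1 and 2, and the highest adjusted p was 0.17.

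Of 7 listed PU.1 targets, 2 rose and 5 were not called between circulating and endogenous cells, with a median of 0.64. Fcgr3, an Fc receptor gene, averaged 238 ± 125 in circulating libraries and 17.1 ± 7.12 in endogenous ones (log2 fold change 3.62, limma adjusted p = 0.0026), a call that held in each of 16 other settings. Tyrobp, a signalling adaptor gene, averaged 130 ± 53.8 and 54.8 ± 3.62 in the same groups (log2 fold change 1.12, limma adjusted p = 0.034). The Tyrobp call was lost in 10 of 16 other settings, among them each fit that left out a library other than circulating replicate 1. Csf1r, which encodes the M-CSF receptor, had a log2 fold change of 0.77 and did not pass, and Itgam stood at -0.33. In irradiated against endogenous cells 1 of the 7 rose, Fcgr3, and 6 did not (median 0.085). That call was lost in 8 of 16 other settings, among them each fit without 1 of the irradiated or endogenous libraries.

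Secondary granule genes need C/EBP epsilon. Of 6 listed, 1 fell and 5 were not called between circulating and endogenous cells, with a median of -1.35. Mmp8, a collagenase gene, averaged 11.7 ± 8.27 in circulating libraries and 70.4 ± 21.9 in endogenous ones (log2 fold change -2.72, limma adjusted p = 0.013), and the call was lost without endogenous replicate 1 or 2. Ltf, the lactoferrin gene, had values of 56.1, 0.488 and 148 in circulating cells, against 312, 235 and 117 in endogenous cells, and was not called. Camp, the cathelicidin gene, had a log2 fold change of 0.15 and was not called either. In irradiated against endogenous cells 0 of the 6 passed (median -0.52). These genes are also markers of neutrophils, whose 10 listed markers summed to 1205 to 1856 in circulating, 849 to 2084 in irradiated and 1161 to 2405 in endogenous libraries. Without S100a8, the other 9 summed to 785 to 1056, 517 to 1520 and 884 to 1886 in the same order. Of the 10, 2 fell between circulating and endogenous cells, Mmp8 and Retnlg, and 8 were not called (median -1.145). The Retnlg call was lost in 12 of 16 other settings.

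Among genes that Gfi1 is known to repress, Meis1, a factor of stem and progenitor cells, fell in circulating against endogenous cells. Meis1 averaged 214 ± 53.3 in circulating libraries and 359 ± 15.1 in endogenous ones (SD, n = 3 each), a log2 fold change of -0.78 (limma adjusted p = 0.023). That call was lost in 4 of 16 other settings, among them the fits without any 1 of the endogenous replicates. Hoxa9, on the same list, had a log2 fold change of -0.38 and was not called. In irradiated against endogenous cells no gene of the list passed. In circulating against irradiated cells 0 genes of these 4 target lists passed.

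Of 26 other factors of myeloid and dendritic fate, 25 had values and 22 were tested. In circulating against endogenous cells 1 rose, 1 fell and 20 did not pass (median -0.29). Maf, a factor of macrophages, averaged 9.69 ± 4.88 in circulating libraries and 2.10 ± 0.561 in endogenous ones (log2 fold change 1.71, limma adjusted p = 0.036). Vdr, the vitamin D receptor gene, averaged 9.08 ± 4.60 and 24.8 ± 6.40 in the same groups (log2 fold change -1.42, limma adjusted p = 0.041). Each of these calls was lost in 10 of 16 other settings. The Vdr call was lost in all but 1 of the fits without a single library, the one without circulating replicate 3, and the Maf call in those without circulating replicate 2, irradiated replicates 1 or 3, or any endogenous library. Irf2, Myb and Stat3 did not pass, with log2 fold changes of -0.59, 0.18 and -0.08. None of the 22 passed in irradiated against endogenous cells (median -0.37) or in circulating against irradiated cells (median -0.02).

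None of 15 partners and regulators of the factors passed in any comparison, with medians of -0.11 for circulating against endogenous, 0.15 for irradiated against endogenous and -0.33 for circulating against irradiated cells. Among them were Cbfb, the DNA-binding partner subunit of Runx1, at a log2 fold change of -0.11 in circulating against endogenous cells, Kdm1a, a corepressor of Gfi1, at -0.14, and Cebpg, a partner of C/EBP proteins, at -0.32. Tcf12, an E protein of the kind that Id2 binds, stood at 0.03.

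Factors of other lineages gave a second point of reference. Of 10 erythroid and megakaryocyte factors, 2 rose, 1 fell and 7 were not called between circulating and endogenous cells (median -0.26). Gata1, the master factor of erythroid cells, averaged 54.4 ± 33.3 in circulating libraries and 11.9 ± 3.34 in endogenous ones (log2 fold change 1.90, limma adjusted p = 0.041). Klf1, also erythroid, averaged 34.9 ± 34.4 and 5.34 ± 1.53 (log2 fold change 2.11, limma adjusted p = 0.044). Lmo2 averaged 348 ± 20.8 and 528 ± 78.6 (log2 fold change -0.59, limma adjusted p = 0.028). The Gata1 and Klf1 calls were each lost in 11 of 16 other settings, among them every fit without circulating replicate 3 or any 1 irradiated or endogenous library, and for Gata1 also without circulating replicate 2. The Lmo2 call was lost in 6, among them the fits without circulating replicates 2 or 3 and without endogenous replicates 1 or 3. None of 11 tested lymphoid factors passed (median -0.22), and neither list had a called gene in the other comparisons.

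**Figure D3:**
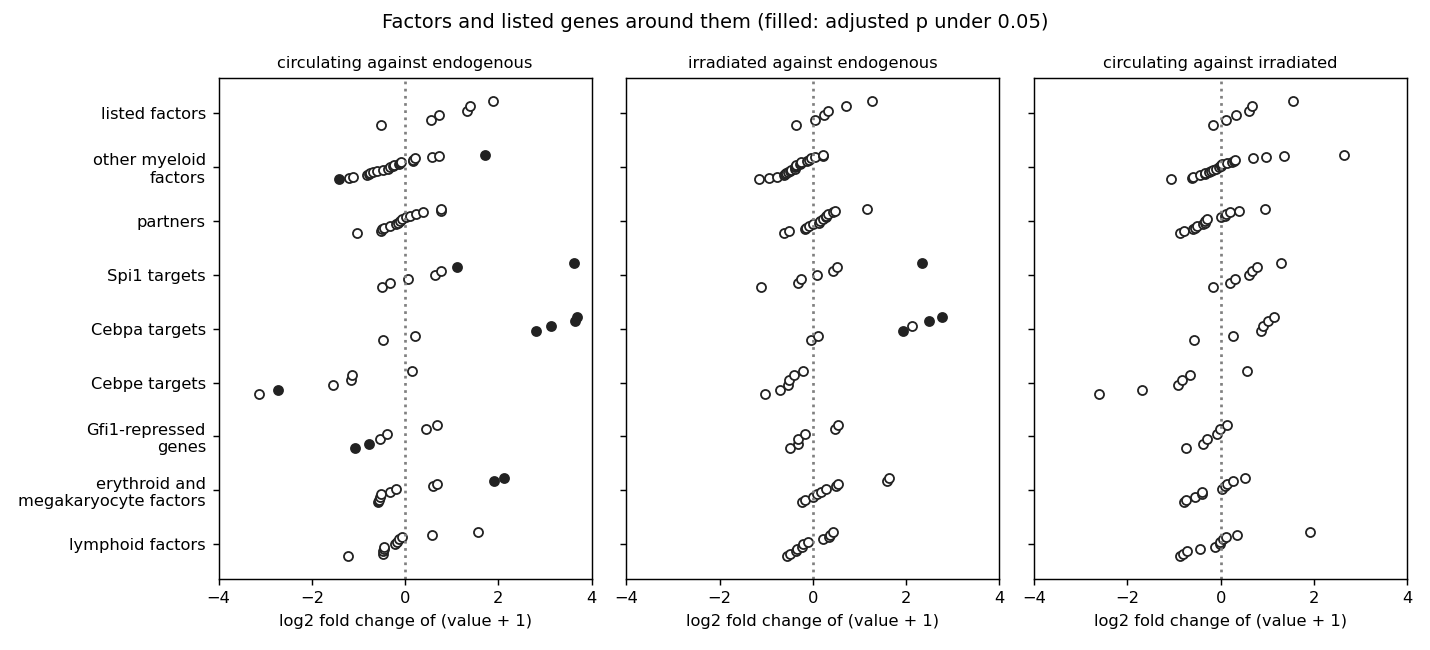
Log2 fold changes (horizontal axes, log2(value + 1) scale) of the 6 tested factors and of the other tested genes in 8 lists, one point per gene, filled where the adjusted p was under 0.05, in the 3 comparisons. The listed factors have no filled point, and 4 of 6 C/EBP alpha targets are filled on the right in circulating against endogenous cells. The lists were chosen with earlier results of these data known.

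The libraries with high Id2 and Irf8 were also high in markers of some other cell types. Circulating replicate 2 had the highest value of all 9 libraries for Cebpe, Gfi1, Id2 and Irf8, and circulating replicate 3 for Spi1, Cebpa and Klf4. The 6 dendritic cell markers summed to 35.4, 219 and 54.4 in circulating replicates 1, 2 and 3, against 22.6, 23.3 and 16.8 in irradiated and 14.4, 14.2 and 30.7 in endogenous replicates. Xcr1, a marker of conventional dendritic cells of the cross-presenting kind, had values of 24.1, 118 and 30.8 in circulating cells, against 5.08, 3.82 and 8.68 in endogenous cells, and it rose (log2 fold change 2.79, limma adjusted p = 0.014), a call lost without endogenous replicate 1 or 2. Without Xcr1, the other 5 summed to 11.3, 101 and 23.6 in circulating replicates, against 9.35, 10.4 and 22.1 in endogenous replicates. Circulating replicate 2 thus stood far above the endogenous libraries, replicate 3 just above the highest of them, and replicate 1 inside their range. Siglech, listed but not tested, had values of 0.291, 0.413 and 0.0628 in circulating cells, against 4.05, 0.196 and 11.1 in endogenous cells. Of the 4 dendritic markers tested, 2 rose and 2 did not pass, and none was at a count of 0 in any library. The other marker that rose, Clec9a, lost its call in 10 of 16 other settings, among them the fits without circulating replicate 2 and without any 1 irradiated or endogenous library. More cells of a type and more RNA per cell cannot be told apart in such libraries. Without circulating replicate 2 the log2 fold change of Id2 against endogenous cells was 1.12 (limma adjusted p = 0.084) and that of Irf8 was 0.91 (limma adjusted p = 0.14). The part of dendritic cell transcripts in the values of Id2 and Irf8 was not tested.

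The 7 monocyte markers summed to 1216, 2053 and 2891 in circulating, 1640, 1131 and 1543 in irradiated, and 1262, 1089 and 840 in endogenous replicates 1, 2 and 3. Without Lyz2, the other 6 summed to 644, 1471 and 2354.5 in circulating and 979, 430 and 990 in irradiated replicates. In endogenous replicates they summed to 332, 201 and 235, below every circulating and irradiated library. Lyz2 itself was lower in every circulating library (537 to 581) than in every endogenous one (606 to 931). Of the 7 monocyte markers, 2 rose in circulating against endogenous cells, Ccr2 and Ly6c2, and 5 did not pass. The Ly6c2 call was lost in 5 of 16 other settings, among them the fits without circulating replicate 2 and without endogenous replicates 2 or 3. In 5 further lists the sums of circulating replicates 2 and 3 were above those of every endogenous library, at 216 and 136 against 77.3 to 88.9 for 5 macrophage markers, 317 and 238 against 75.3 to 108 for 8 B cell markers, and 754 and 904 against 230 to 292 for 6 T and NK cell markers. For 6 mast cell and basophil markers they were 649 and 802 against 173 to 205, and for 7 erythroid markers 401 and 802 against 115 to 157. Single genes made up much of some sums. Without Vcam1, the other 4 macrophage markers summed to 42.1, 84.0 and 56.1 in circulating replicates 1, 2 and 3, against 54.3, 43.9 and 54.4 in endogenous replicates. Of these macrophage markers, C1qa was lower and Adgre1 higher in every circulating library than in every endogenous one. Without Nkg7, a cytotoxic granule gene, the other 5 T and NK cell markers summed to 5.91, 92.7 and 8.02 in circulating replicates 1, 2 and 3, against 20.1, 16.7 and 10.1 in endogenous replicates, so that replicate 2 alone stood above them and the others below. Without Car1, a carbonic anhydrase gene, the other 6 erythroid markers summed to 88.0, 47.2 and 192.5 in circulating replicates, against 39.8, 75.0 and 104.5 in endogenous replicates, so that replicate 3 alone stood above them. Circulating replicate 1 had sums of 74.6, 107, 519, 163 and 159 for these 5 lists in the same order. In that library the B cell markers Igll1 and Vpreb1 and the mast cell marker Fcer1a were at a count of 0, as were Alas2 in circulating replicate 2, Cd3e in irradiated replicate 2 and Pax5 in endogenous replicate 2. The part of such transcripts in the fold changes of the factors was not tested.

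**Figure D4:**
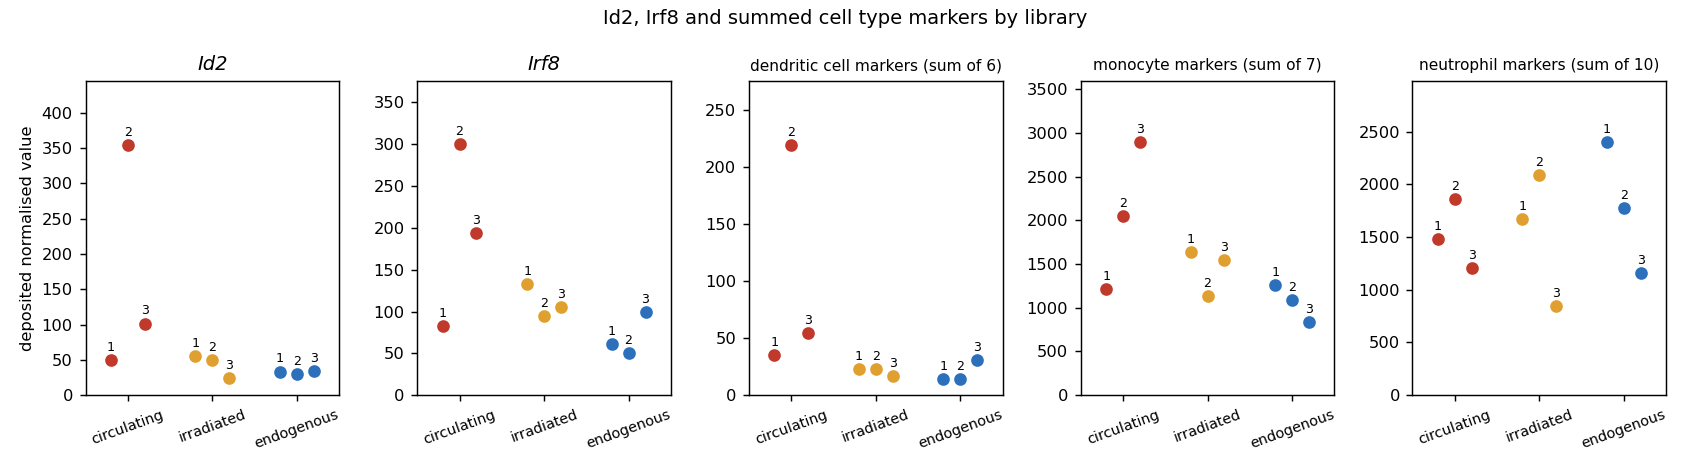
Deposited normalised values of Id2 and Irf8 and summed values of the dendritic cell, monocyte and neutrophil marker lists (vertical axes, linear, starting at 0), one point per library, numbered by replicate. Circulating replicate 2 is the highest point for Id2 at 354, for Irf8 at 301 and for the dendritic markers at 219, and circulating replicate 3 is the highest for the monocyte markers at 2891.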

How the data were processed

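RNA of 9 LSK libraries was read with SMART-Seq v4 and Nextera XT, per the labels' protocols. Build mm10 and the tools RSEM 1.3.1, CASAVA and limma appear, without stated roles, in the submitters' processing notes. The deposited values are a normalised signal: in each column 100% are a number with 2 decimals plus 0.5, multiplied by a constant of that column, the form of an estimated count over a scaled library size. The scaling, the gene filter and the annotation release were not given in the sources used here.

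Groups came from the labels. Genes with a value of at least 1 in at least 3 libraries (13771) were fitted with limma-trend 3.58.1 in R 4.3.3 on log2(value + 1), moderated robustly, with no covariates and Benjamini-Hochberg adjustment. The fit was also run on simulated data with independent noise, the spread of each gene being equal in all 9 libraries. Such data cannot speak to libraries of unequal spread or to paired ones. Alternatives were a pseudocount of 0.5, no filter, library size alone, sample weights, 2 groups only, limma voom on recovered counts, a replicate block and leaving out each library. Symbols, 14405 of 14461, and positions came from GENCODE M21 of GRCm38, the assembly that mm10 names. Named genes were all 10 factors and, from each list, up to 6 called and 3 uncalled genes, with the 3 genes most like each factor. The factors and lists were chosen with earlier results of these data known. The result of 1 listed gene is not reported here.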

Additional observations from a re-analysis of the deposited data

How the results depend on the processing

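Depth limits Cebpa, Klf4 and Cebpe, which rest on few counts. No factor was called in the 3 comparisons with a pseudocount of 0.5, without the filter, with sample weights, with 2 groups only, with voom or with a replicate block. In circulating against endogenous cells, scaling by library size alone called 1 factor, and leaving out 1 library called between 0 and 4. The count of called genes was 1189, with 494 under sample weights, 239 with 2 groups only and 257 to 2224 when 1 library was left out. For irradiated against endogenous cells it was 83, with 897, 757 and 6 to 263 under the same settings. For circulating against irradiated cells it was 4, with 11 when scaled by library size alone, 8 with voom and 3 to 137 when 1 library was left out. A sign turned in 7 fits, for 3 of the factors. Gfi1 in irradiated against endogenous cells became -0.071 when scaled by library size alone, -0.04 without irradiated replicate 1, -0.10 without irradiated replicate 2 and -0.43 without endogenous replicate 1, with 0.46 as the highest value when 1 library was left out. Cebpe in circulating against irradiated cells became -0.22 without circulating replicate 2 and -0.06 without irradiated replicate 2 (highest 0.41), and Runx1 became 0.038 without circulating replicate 2 (lowest -0.28). The cause was not tested.

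The titles of same-numbered circulating and irradiated libraries share a code (DD1 to DD3) that the labels do not explain, so these libraries may be paired. They had correlations of 0.031 to 0.182 between their deviations from the group means over genes, and 4 of 6 libraries were closest to their own number. The count was 3 of 6 between irradiated and endogenous and 2 of 6 between circulating and endogenous libraries, whose titles share no code. The 4 of 6 is at most a hint from the data and not from the design. With the replicate number as a block, 1147, 105 and 9 genes were called in the 3 comparisons, and 2 in circulating against irradiated cells when their shared code was the block and no endogenous library was fitted.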
